A study of Mus musculus with 60 samples.

Results

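Alveolar type 1 cells are the thin epithelial cells that line most of the gas exchange surface of the lung. A set of 5 genes used as markers of these cells, Ager, Hopx, Pdpn, Cav1 and Rtkn2, was followed on dual-colour microarrays of lung, liver and forestomach. Members were found through the RefSeq accession that the array files give for each probe. A probe was matched for 4 of the 5 genes, 6 probes in all of 55681 on the array, among 20018 genes with a matched probe. Ager and Cav1 had 1 probe each, and Hopx and Pdpn had 2, of which the brighter is given first and the other is called the second probe. No probe was matched to Rtkn2, and no value is given for it.

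The 60 arrays came from 20 male MutaTMMouse animals, a transgenic strain made for mutation assays, which were about 10 weeks old. All mice received olive oil by oral gavage for 28 days. The 5 mice of group D0 (mice 1 to 5) received the oil alone, and the others received the polycyclic aromatic hydrocarbon benzo(ghi)perylene (BghiP) in it, at 6.25 mg/kg-bw/day in group D1 (mice 6 to 10), 12.5 in D2 (mice 11 to 15) and 25 in D3 (mice 16 to 20). Lung, liver and forestomach were frozen 72 h after the last dose, and RNA of 1 random section of each tissue of each mouse was labelled with Cy5 and hybridized with a common Cy3-labelled reference RNA pooled from mouse cell lines. A section is a mixture of cell types, so that fewer cells of a type and less RNA per cell cannot be told apart. Values are log2 ratios of Cy5 to Cy3, normalized by loess within each array, unless they are named as log2 Cy5 signal, the tissue channel alone after scaling between arrays.

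Type 1 cells are squamous, cover most of the alveolar wall beside the capillaries, and can arise from the cuboidal type 2 cells that make surfactant. Ager encodes RAGE, a receptor for advanced glycation end products, S100 proteins and HMGB1 that is unusually abundant on type 1 cells. Hopx is a small homeodomain protein without DNA binding of its own, also known from heart and from stem cells of intestine and skin. Pdpn (podoplanin, also T1alpha) is a mucin-type membrane glycoprotein of type 1 cells, lymphatic endothelium and mesothelium. Cav1 is the scaffold protein of caveolae, membrane pits that are also plentiful in endothelium, smooth muscle and fat.

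The promoters of Ager and Hopx are shown because the log2 ratios of these genes moved together over the lung arrays, as given further on. Their log2 Cy5 signals did so far less (r = 0.283), and shared control of the 2 genes was not tested. RefSeq entries of assembly GRCm38.p6, each from 250 bases before to 50 bases after a transcript start, were used for the 4 genes with a probe. The bases are given in lower case 5′ to 3′ on the gene's strand, with a match to a searched motif in capitals. Ager lies at chr17:34597600-34597899 on the plus strand, and Hopx has entries at chr5:77095218-77095517 and chr5:77115074-77115373 on the minus strand.
Ager: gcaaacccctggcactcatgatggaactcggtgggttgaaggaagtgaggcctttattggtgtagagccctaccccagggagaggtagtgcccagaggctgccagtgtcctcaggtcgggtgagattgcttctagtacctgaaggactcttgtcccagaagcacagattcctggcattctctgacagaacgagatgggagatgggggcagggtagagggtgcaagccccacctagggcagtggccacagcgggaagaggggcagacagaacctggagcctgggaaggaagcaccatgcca
Hopx, first entry: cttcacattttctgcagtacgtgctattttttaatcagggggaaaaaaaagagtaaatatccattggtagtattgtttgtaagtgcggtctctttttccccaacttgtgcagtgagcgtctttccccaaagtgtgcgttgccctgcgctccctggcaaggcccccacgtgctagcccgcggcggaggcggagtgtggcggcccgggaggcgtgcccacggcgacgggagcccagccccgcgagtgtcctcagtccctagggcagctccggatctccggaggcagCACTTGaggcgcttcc
Hopx, second entry: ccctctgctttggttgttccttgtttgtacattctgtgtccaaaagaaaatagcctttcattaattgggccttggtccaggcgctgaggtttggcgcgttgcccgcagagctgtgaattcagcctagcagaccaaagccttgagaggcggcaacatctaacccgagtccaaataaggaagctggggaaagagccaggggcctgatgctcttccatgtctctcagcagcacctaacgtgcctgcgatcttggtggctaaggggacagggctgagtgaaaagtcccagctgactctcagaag
On both strands, GGAATG (bound by TEAD factors), CAAGTG (bound by NKX2-1), TNGCGTG (the core of the xenobiotic response element, which the aryl hydrocarbon receptor binds) and GGGCGG (the GC box) were searched. These letters occurred in 14.7%, 13.6%, 5.07% and 35.7% of the 32851 promoter entries of the same length. In the 3 sequences shown there was a single match, to CAAGTG on the opposite strand of the first Hopx entry, 34 bases past the start. A match is a run of letters and not a measured binding site.

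Before the results, these arrays are described because markers of other tissues were high on them. The forestomach array of D0 mouse 2 held lung transcripts and is described below. On the lung array of D0 mouse 1 the mean log2 Cy5 signal of 8 skeletal muscle genes was 12.52, against 6.34 to 7.47 on the other 19 lung arrays, and that of 9 squamous epithelial genes was 10.63, against 6.72 to 6.98. On the forestomach array of D0 mouse 5 the mean of 8 fat genes was 11.35, against 7.32 to 10.04 on the other 19. These 3 belong to D0, the group every dose was compared with, and are called the 3 D0 arrays. On the lung array of D3 mouse 20 the mean of 6 hepatocyte genes was 10.06, against 6.18 to 6.57 on the other 19, and on that of D1 mouse 8 the fat genes were at 11.01, against 6.88 to 9.81. Among the forestomach sections the mean of the 6 hepatocyte genes ran from 6.08 to 10.72, highest in D2 mouse 15, whose mesothelial mean of 9.77 was also the highest (others 7.83 to 8.88). The 3 D0 arrays were left out together and every array also alone. The labelled tissues carried their own markers, since the median difference of lung from liver was 6.07 log2 units over 10 alveolar type 2 genes and -7.56 over 6 hepatocyte genes (0.055 over all probes), and that of lung from forestomach was -4.79 over 9 squamous genes (0.012 over all probes). The share of probes well above background in Cy5 ran from 34.9% to 58.6% on the lung arrays, from 36.3% to 48.3% in liver and from 21.3% to 53.3% in forestomach.

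The first comparison asked where the members were expressed. All 4 genes had their highest mean Cy5 signal in lung, and Ager had by far the sharpest contrast, with a signal in lung and none that could be told from background in liver. Ager was well above background on 20 of 20 lung arrays, 0 of 20 liver arrays and 1 of 20 forestomach arrays. Pdpn and Cav1 followed a graded order of lung, forestomach and liver, and Hopx was well above background on all 20 arrays of every tissue. Differences between tissues are means over the 4 dose groups from a limma model of all 12 groups, with adjusted p-values over 33255 probes, and calls required 1.5-fold or more together with an adjusted p of at most 0.05. By the first probe, 3 of the 4 members were called higher in lung than in liver, against 26.2% of all probes tested. The same 3 genes, Ager, Pdpn and Cav1, were called higher in lung than in forestomach, against 18.8% of all probes.

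In the lungs of D0 mice 1 to 5, the log2 ratio of Ager was 5.32, 5.61, 5.15, 5.78 and 6.47. In their livers it was -0.39, -0.08, -0.66, -0.38 and -0.24. In their forestomachs it was -0.15, 3.26, -0.31, -0.25 and -0.53. The lung values stood far above both other tissues, and the single forestomach value of 3.26, that of mouse 2, lay between them. Over all doses the log2 ratio of Ager was 6.14 ± 0.17 (SE, n = 20 per tissue) higher in lung than in liver (limma, adjusted p = 2.78e-37). That ratio difference is 70.3-fold. No liver array measured Ager above background, so the fold by the log2 Cy5 signal alone (mean 13.84 in lung and 6.06 in liver) is a bound, at least 212-fold. The Cy3 signal of Ager was also higher on lung arrays (mean 8.05) than on liver arrays (6.40). The bound therefore holds for the Cy5 signal and not for the ratio. Against the 19 forestomach arrays other than that of D0 mouse 2, whose mean signal was 6.04, Ager was at least 206-fold higher by the Cy5 signal. By the ratio, over all forestomach arrays, the difference from lung was 57-fold.

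Pdpn showed little spread within a tissue. Its log2 ratio in the D0 mice was 0.10, 0.43, 0.42, 0.70 and 0.59 in lung, -3.75, -3.92, -3.81, -3.80 and -4.00 in liver, and -2.32, -1.70, -2.17, -1.93 and -2.65 in forestomach. The 3 tissues did not overlap on any of the 60 arrays, whose ranges were 0.10 to 0.78, -4.16 to -3.72 and -2.81 to -1.70. Pdpn was 4.47 ± 0.07 (SE) log2 units higher in lung than in liver, a 22.2-fold difference (limma, adjusted p = 1.43e-48). It was 2.82 ± 0.07 higher in lung than in forestomach, 7.04-fold (limma, adjusted p = 4.15e-38). The second Pdpn probe gave smaller differences of 2.65 ± 0.09 and 1.84 ± 0.09 log2 units, both called. That probe was dim, above background on 0 liver arrays and 9 forestomach arrays, and its lung signal was at least 5.78-fold that in liver.

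Cav1 had a log2 ratio of 2.05, 2.29, 2.36, 2.55 and 2.63 in the lungs of the D0 mice, -1.87, -1.33, -2.07, -2.18 and -1.73 in their livers, and 0.53, 0.63, 0.20, 0.76 and 0.97 in their forestomachs. Again no value of one tissue reached another, over these mice and over all 60 arrays, where lung ran from 2.05 to 2.73, liver from -2.42 to -1.33 and forestomach from -0.94 to 1.16. Cav1 was 4.33 ± 0.10 (SE) log2 units higher in lung than in liver (limma, adjusted p = 4.5e-41). It was above background on 0 of 20 liver arrays, and by the Cy5 signal it was at least 16.6-fold higher in lung. The difference from forestomach was 2.16 ± 0.10 log2 units, 4.48-fold (limma, adjusted p = 1.42e-26).

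Hopx behaved otherwise, with a high ratio in every tissue. Its log2 ratio in the D0 mice was 4.70, 4.93, 4.70, 5.02 and 5.54 in lung, 4.38, 4.53, 5.02, 4.74 and 4.14 in liver, and 4.39, 4.95, 3.56, 4.70 and 5.14 in forestomach. These 3 sets of values overlapped. Over all doses Hopx was 0.58 ± 0.13 (SE) log2 units higher in lung than in liver (limma, adjusted p = 5.78e-05), which at 1.49-fold was just under the fold required for a call. It was 0.49 ± 0.13 higher in lung than in forestomach, 1.40-fold (limma, adjusted p = 0.000572). The second Hopx probe gave 0.84 ± 0.17 and 0.60 ± 0.17 log2 units, 1.79-fold and 1.51-fold, and was called in both. Without the 3 D0 arrays the first probe gave 0.59 log2 units against either tissue (limma, adjusted p = 3.18e-05 for liver and 7.51e-05 for forestomach), just past the fold for a call. Leaving out any 1 of 13 lung or liver arrays, such as lung D1 mouse 8 (0.61), also brought the difference from liver past it. By dose the lung minus liver difference of the first probe was 0.42 at D0, 0.20 at D1, 0.67 at D2 and 1.01 at D3, each ± 0.25 (SE). It was called at D2 (limma, adjusted p = 0.0181) and D3 (limma, adjusted p = 0.000493), and not at D0 or D1. Against forestomach it was called at D1 alone (0.62, limma, adjusted p = 0.0354).

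The tissue channel alone separated the tissues for Hopx too. Its log2 Cy5 signal was 14.92, 15.32, 15.44, 14.89 and 15.19 in the lungs of the D0 mice and 11.55, 12.22, 12.34, 11.86 and 11.65 in their livers. The lowest lung array of all 20, at 14.82, lay above the highest liver array, at 12.93. By this measure Hopx was 3.30 ± 0.17 (SE) log2 units higher in lung than in liver, 9.85-fold (limma on log2 Cy5, adjusted p = 3.62e-24), and 1.29 ± 0.17 higher than in forestomach, 2.45-fold (adjusted p = 3.16e-09). All 4 members were then called higher in lung than in liver, against 24.5% of probes by the same measure, and all 4 higher than in forestomach, against 17.7%. The Cy5 signal is open to array brightness and dye differences that the ratio is meant to remove, and this measure was added after the data were seen.

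The 2 measures parted because the reference channel of Hopx was not level, although every array received the same reference RNA. The log2 Cy3 signal of Hopx ran from 9.53 to 10.75 on lung arrays, from 7.03 to 7.68 on liver arrays and from 7.44 to 10.50 on forestomach arrays. Over the 20 forestomach arrays it rose and fell with the Cy5 signal of the same probe (r = 0.854), over the lung arrays less so (r = 0.394). The Cy3 signal of Ager was likewise higher on lung arrays, 7.65 to 8.32, than on liver arrays, 6.29 to 6.50, or forestomach arrays, 6.12 to 6.44. Pdpn (12.34 to 12.53 in lung and 12.31 to 12.51 in liver) and Cav1 (8.07 to 8.52 in lung and 8.45 to 8.71 in liver) had a Cy3 signal that moved far less. A log2 ratio therefore gave a smaller lung difference than the Cy5 signal did for Hopx and Ager, and about the same one for Pdpn and Cav1. Why the reference signal moved with tissue was not tested. Liver arrays were on slides of their own, while lung and forestomach arrays shared theirs.

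**Figure D1:**
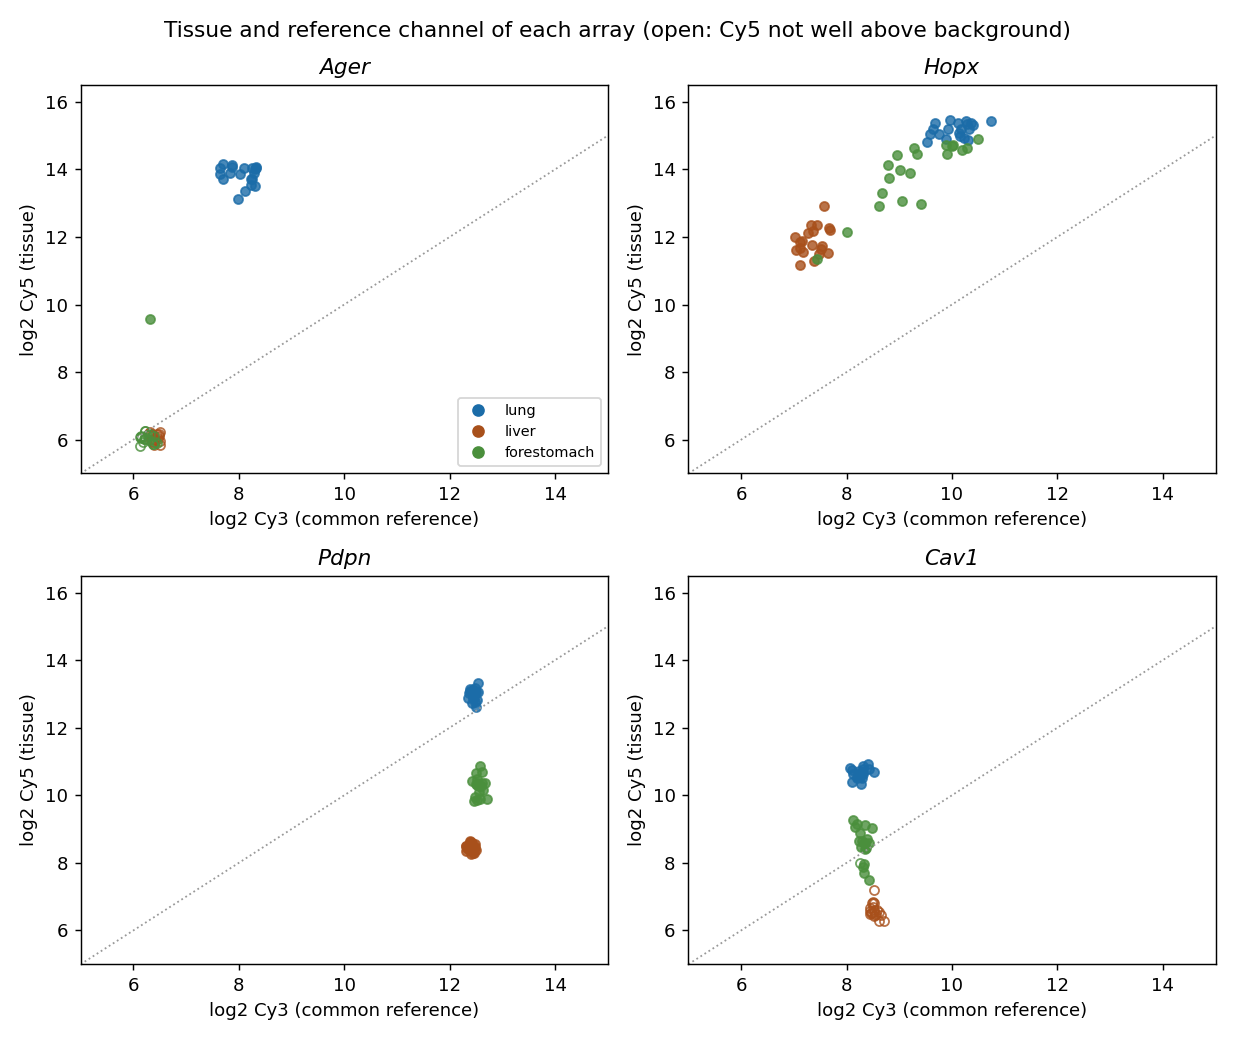
Each point is 1 array, with the log2 Cy3 signal of the common reference on the horizontal axis and the log2 Cy5 signal of the tissue on the vertical axis, 20 arrays per tissue, and open points mark arrays where the probe was not well above background in Cy5. The dotted line marks equal signals. Pdpn and Cav1 spread along the Cy5 axis alone, whereas the Cy3 signal of Hopx ran from 7.03 on a liver array to 10.75 on a lung array.

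Between forestomach and liver, 2 of the 4 members were called higher in forestomach, against 21.5% of all probes. Pdpn was 1.66 ± 0.07 (SE) log2 units higher, 3.15-fold (limma, adjusted p = 2.53e-28), and Cav1 was 2.16 ± 0.10 higher, by Cy5 signal at least 3.84-fold (limma, adjusted p = 4.97e-27). Hopx did not differ by ratio, 0.09 ± 0.13 (limma, adjusted p = 0.554), but by Cy5 signal it was 2.01 ± 0.17 log2 units higher in forestomach (limma on log2 Cy5, adjusted p = 2.54e-15), so that 3 of the 4 were called against 19.9% of probes. For Ager, near background in both tissues, the ratio differed by 0.30 ± 0.17 (limma, adjusted p = 0.095), and by 1.25 with the background-subtracted signals of the scanner program (limma, adjusted p = 0.000757). In the D0 mice alone this difference was 0.75 ± 0.33 (limma, adjusted p = 0.0489), but without the forestomach array of mouse 2 it was 0.04 (limma, adjusted p = 0.883).

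**Figure D2:**
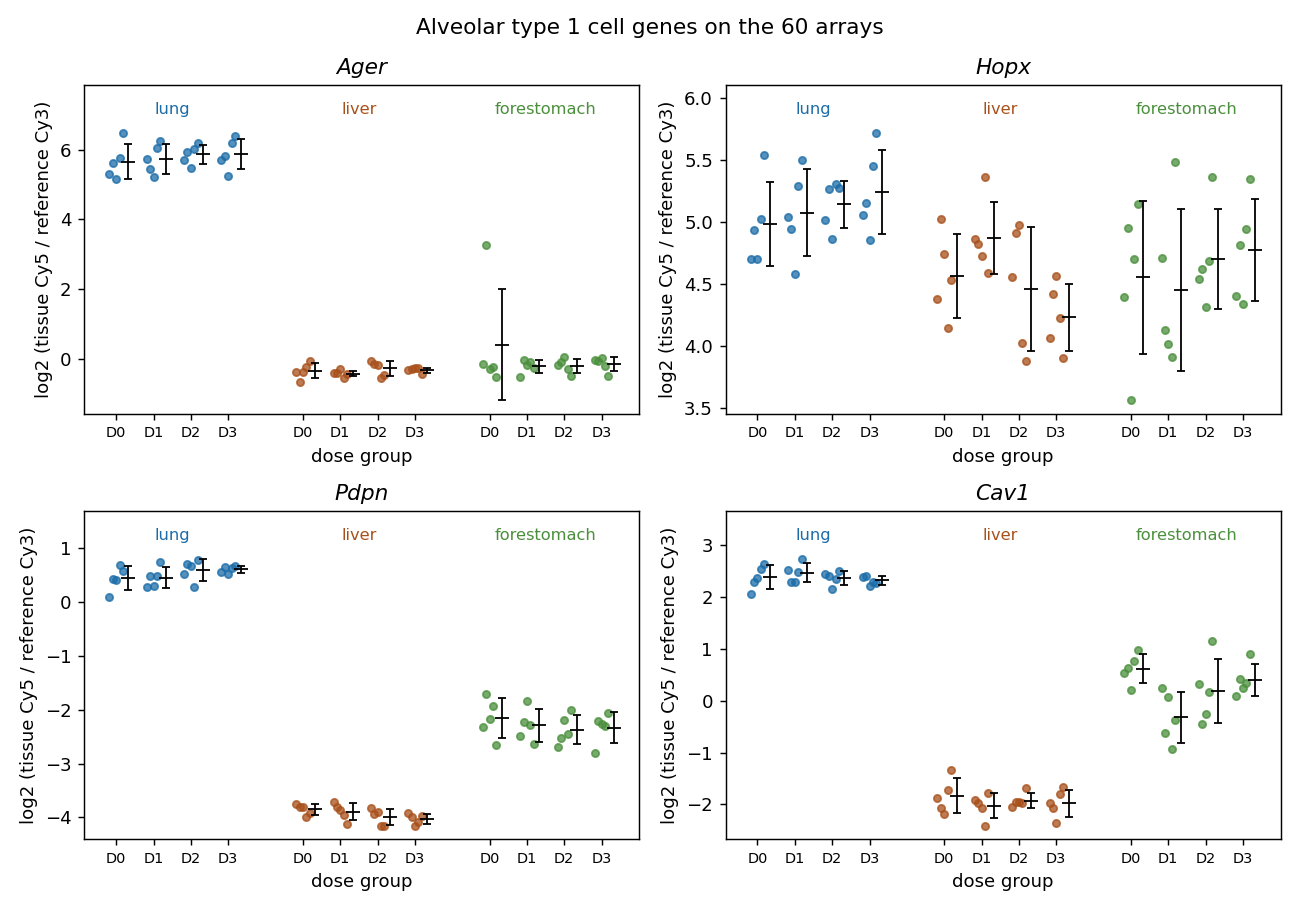
Log2 ratio of tissue Cy5 to reference Cy3 for the first probe of each gene in the 12 groups of 5 arrays, 1 point per array, with the group mean and SD as the black bar beside it. Lung lies above liver on every array for Ager, Pdpn and Cav1, Hopx overlaps between tissues, and 1 forestomach array of D0 stands at 3.26 for Ager.

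A wider list of 20 further genes known from type 1 cells, each with a matched probe, was read next. Of the 19 that passed the filter, 18 were called higher in lung than in liver (26.2% of all probes) and 1 lower, with a median difference of 3.92 log2 units, against 0.055 over all probes. The largest differences were those of Aqp5, the water channel of the apical membrane (8.10 ± 0.29, SE), Limch1 (7.84 ± 0.23), Akap5, a kinase anchoring protein (7.22 ± 0.21), and Clic5, an ezrin-associated chloride channel protein (6.70 ± 0.20). The exception was Igfbp2, a binding protein of insulin-like growth factors that is also made in liver, which was 1.09 ± 0.15 lower in lung. Against forestomach 18 of the 19 were called higher (18.8% of all probes), with a median of 3.15, and Igfbp2, at -0.48, was not called. The gene of the list that did not pass the filter was Myrf, above background on 4 lung arrays. In liver alone 14 of the 19 passed it. The others lay near background there, which limits the sizes given for their differences from liver.

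Transcription factors that act in alveolar epithelium were less uniform. Of 9 tested, 6 were called higher in lung than in liver (26.2% of all probes) and 1 lower. Nkx2-1, the master regulator of lung epithelium, was among the 6, and it was above background on 20 lung arrays and on 0 arrays of either other tissue. Tead1, a DNA-binding partner of YAP and TAZ, was 4.13 ± 0.10 (SE) log2 units higher and Wwtr1 (TAZ) 2.08 ± 0.09 higher, while Yap1 differed by 0.45 ± 0.09 and was not called. Cebpa, abundant in hepatocytes, was 2.05 lower. Against forestomach 5 of the 9 were called higher (18.8% of all probes) and 1 lower, Klf5, an epithelial zinc finger factor, at -1.39.

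Genes that act with single members were read the same way, against the same 26.2% of all probes called higher than in liver and 18.8% higher than in forestomach. Among 9 partners of Cav1 in caveolae, 7 were called higher in lung than in liver, led by Cavin1 (6.09 ± 0.10 log2 units, SE), Cavin2 (5.98 ± 0.09) and Cav2 (5.04 ± 0.06), which is also in the wider list, and 4 higher than in forestomach. Pacsin3 was called lower in lung in both comparisons (-1.52 and -0.88). Of 6 ligands and signalling partners of RAGE, 5 were called higher in lung than in liver, among them the neutrophil proteins S100a9 (4.62 ± 0.27) and S100a8 (3.82 ± 0.24). For Pdpn, 4 of 6 partners were called higher in lung than in liver, with Msn (moesin, which links membrane proteins to actin) at 5.79 ± 0.12, while Lgals8, a galectin, was lower (-1.39 ± 0.07) and Clec1b, the platelet receptor of podoplanin, did not differ (-0.04 ± 0.11). Of 3 partners of Hopx 1, Srf, was called higher (2.06 ± 0.10), a share near that of all probes, and Gata4 was lower (-2.10 ± 0.22). These genes are also used by endothelium, blood cells and smooth muscle, and in lung the summed level cannot be assigned to a cell type.

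The forestomach array of D0 mouse 2 was the only array outside lung on which Ager was well above background. Its log2 Cy5 signal for Ager was 9.56, against 5.82 to 6.26 on the other 19 forestomach arrays and a mean of 13.84 in lung. Pdpn was also highest on this array (10.87, others 9.82 to 10.69), while Hopx (13.97, others 11.36 to 14.90) and Cav1 (8.89, others 7.48 to 9.28) lay within the range of the others. Markers of alveolar type 2 cells moved with it, since all 10 of the list were at their highest forestomach signal there. Sftpc, surfactant protein C, had a log2 Cy5 signal of 18.14 (others 5.86 to 9.63, lung mean 19.35), and Sftpa1 of 13.09 (others 5.59 to 6.82). Of 5 club and ciliated cell genes 3 were highest there, with Scgb1a1, the secretoglobin of club cells, at 17.36 (others 10.12 to 14.19). Of 7 heart muscle genes Myh6 (12.11, others 5.96 to 6.86) and Myl4 (11.91, others 8.25 to 9.62) were highest there, while the other 5 lay within the range. Of the 20 wider type 1 genes 11 were highest there, of 10 endothelial genes 6, and of 9 squamous epithelial genes 0. Among the squamous genes Krt1 (13.74, others 14.11 to 17.48) and Krt13 (13.36, others 13.62 to 16.38) were below every other forestomach array, while Krt5 lay within the range (15.27, others 14.77 to 17.02). The median difference of a gene from its median on the other arrays was -1.12 over the squamous list and -1.13 over 7 smooth muscle genes. In all, 244 probes were at least 1 log2 unit above every other forestomach array on this one, of which 135 were tested between tissues. Of these 135, 69 (51.1%) were called higher in lung than in forestomach, against 18.8% of all probes tested. How lung transcripts came to be measured on this array was not tested.

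**Figure D3:**
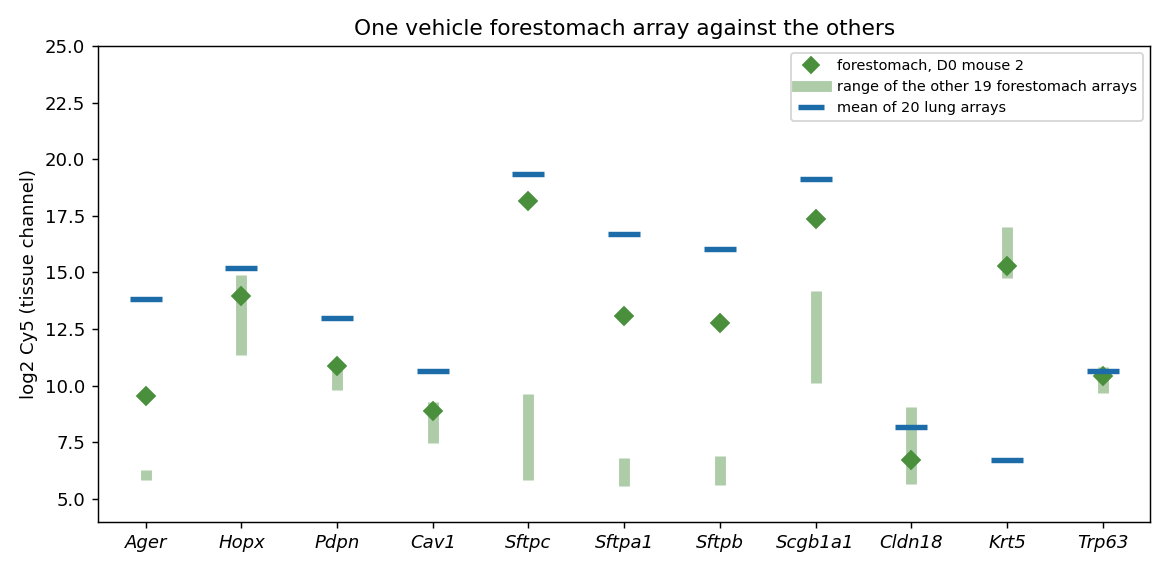
Log2 Cy5 signal of the 4 members, of alveolar type 2 (Sftpc, Sftpa1, Sftpb), club cell (Scgb1a1), alveolar (Cldn18) and squamous (Krt5, Trp63) genes on the forestomach array of D0 mouse 2 (diamonds), over the range of the other 19 forestomach arrays (bars) and beside the mean of the 20 lung arrays (dashes). Ager, Sftpc, Sftpa1, Sftpb and Scgb1a1 stand above the range of the other arrays, and Krt5 and Trp63 lie within it, while the squamous genes Krt1 and Krt13, which are not drawn, were below the other arrays.

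The next comparison asked whether BghiP changed these genes. No member was called at any dose in any tissue, and neither was any other probe: at D1, D2 and D3 limma called 0% of the 31022 lung probes, 0% of the 25893 liver probes and 0% of the 25070 forestomach probes, with 1492, 3145 and 377 probes at an unadjusted p under 0.05 at D3. Ager was not tested against dose in liver and forestomach, nor Cav1 in liver, since they did not pass the filter there. In lung, 3 members had a mean at D3 above that of D0 and Cav1 one below it, with every interval of the fit without a block including 0.

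For Ager the log2 ratio in lung was 5.70, 5.83, 5.26, 6.21 and 6.39 in the D3 mice, against 5.15 to 6.47 in the D0 mice. The groups overlapped almost fully. Its change was 0.08 at D1, 0.21 at D2 and 0.21 ± 0.25 (SE) at D3, with a 95% interval at D3 from -0.31 to 0.74 (limma, adjusted p = 0.998). For Hopx the D3 lungs gave 5.05, 5.15, 4.85, 5.45 and 5.71, against 4.70 to 5.54 at D0. Its changes were 0.09, 0.16 and 0.27 ± 0.19, with an interval at D3 from -0.13 to 0.66 (limma, adjusted p = 0.998), and 4 of 5 D3 mice lay above the D0 mean. The second Hopx probe changed by 0.38 ± 0.27.

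For Pdpn the D3 lungs gave 0.56, 0.65, 0.53, 0.64 and 0.67, all above the D0 mean of 0.45 but within the D0 range of 0.10 to 0.70. Its changes were 0.02, 0.15 and 0.16 ± 0.11 (SE), with an interval at D3 from -0.08 to 0.40 (limma, adjusted p = 0.998). The lowest D0 lung value, 0.10, was that of mouse 1, whose section held skeletal muscle markers, and without the 3 D0 arrays the D3 change of Pdpn was 0.07. For Cav1 the D3 lungs gave 2.39, 2.41, 2.21, 2.29 and 2.28, within the D0 range of 2.05 to 2.63, and its change at D3 was -0.06 ± 0.11, with an interval from -0.28 to 0.16 (limma, adjusted p = 0.998). For Pdpn and Cav1 the interval excludes a change of 1.5-fold, and for Ager and Hopx it does so, by the first probe, only with slide as a block. Each slide held 1 lung array of every dose, and with that block the D3 intervals were 0.01 to 0.42 for Ager (limma, adjusted p = 0.296) and 0.08 to 0.45 for Hopx (limma, adjusted p = 0.142), with neither called. The interval of the second Hopx probe was then 0.12 to 0.65, which includes 1.5-fold. The D3 array lay above the D0 array on 5 of 5 slides for Hopx, on 4 of 5 for Ager and for Pdpn, and on 2 of 5 for Cav1. By the second probes it did so on 4 of 5 for Hopx and 5 of 5 for Pdpn. Without D3 mouse 20, whose lung section held hepatocyte markers, the D3 change was 0.09 for Ager and 0.15 for Hopx in the fit without a block, in which the slides are then no longer balanced between the doses. With the slide block and without that array it was 0.22 ± 0.11 (SE) for Ager (limma, adjusted p = 0.305) and 0.24 ± 0.094 for Hopx (limma, adjusted p = 0.203). Without the 3 D0 arrays the D3 change was 0.13 for Ager and 0.20 for Hopx. Without D1 mouse 8 the D1 change was 0.21 for both genes.

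**Figure D4:**
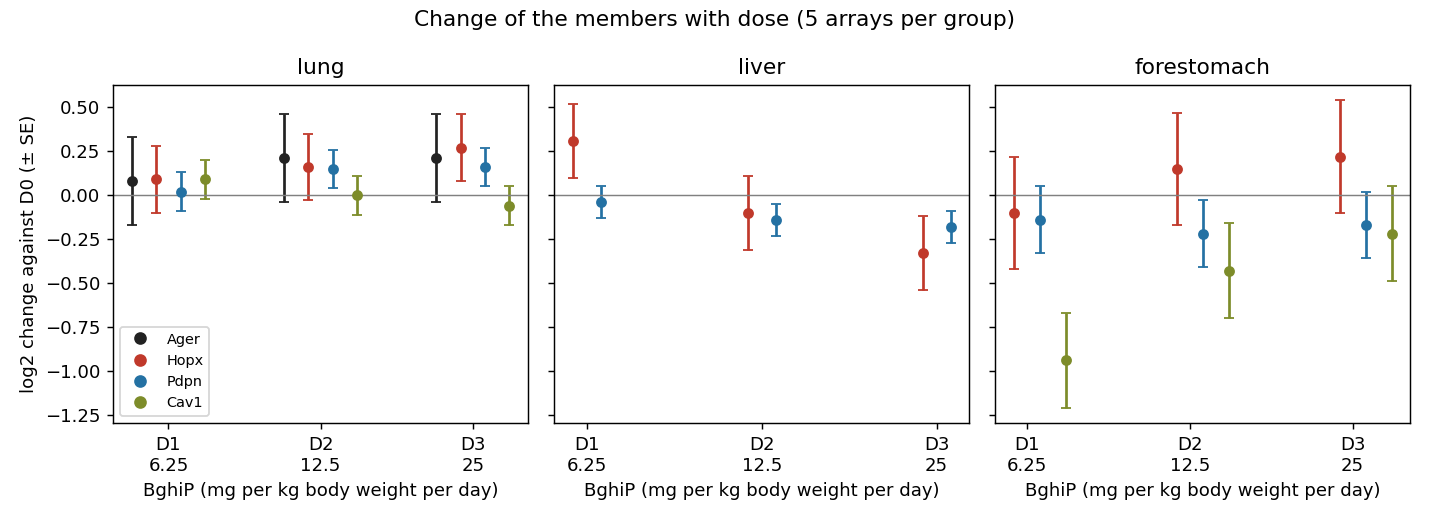
Log2 change of the first probe of each gene against D0 (points) with its standard error (bars) over dose in mg/kg-bw/day, 5 arrays per group, for the genes that passed the filter in that tissue. No change was called, and that of Cav1 in forestomach at D1 (-0.94) was the farthest from 0.

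Other type 1 genes moved as little in lung. Of the 19 wider type 1 genes tested at D3, 0 were called (limma, 1492 probes of all genes at an unadjusted p under 0.05). Their changes had a median of 0.18, against 0.009 over all probes, and 17 of 19 were above 0, against 52.6% of all probes. The largest changes were those of Igfbp2 (0.39 ± 0.22, SE) and Icam1, an adhesion molecule (0.29 ± 0.32), and the smallest those of Lmo7 (-0.21 ± 0.15) and Akap5 (-0.02 ± 0.18). Among the 9 transcription factors, 7 were above 0 with a median of 0.15, Gata6 at 0.35 ± 0.15 and Nkx2-1 at 0.24 ± 0.30, and Tead4 (-0.15 ± 0.13) and Klf5 (-0.05 ± 0.20) were lowest. The median change of other cell lists in lung at D3 was 0.18 over 10 type 2 genes, 0.19 over 10 endothelial genes, 0.67 over 6 mesothelial genes, 0.33 over 7 smooth muscle genes, 0.22 over 7 fat genes, 0.11 over 6 fibroblast genes and -0.16 over 7 heart muscle genes. It was -0.96 over 6 skeletal muscle genes and -0.74 over 6 squamous genes, the lists that were high on the lung array of D0 mouse 1, and 0.36 over 2 hepatocyte genes. No gene of these lists was called. Genes of a list were measured on the same arrays and share their deviations.

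In liver the members that could be tested, Hopx and Pdpn, had D3 means below D0. The log2 ratio of Hopx in the D3 livers was 4.06, 4.42, 4.56, 3.90 and 4.22, against 4.14 to 5.02 at D0, and that of Pdpn was -3.91, -4.00, -4.16, -3.98 and -4.09, against -4.00 to -3.75. All 5 D3 values of each gene lay below the D0 mean, and the groups overlapped. The changes were -0.33 ± 0.21 (SE) for Hopx (limma, adjusted p = 0.542) and -0.18 ± 0.09 for Pdpn (limma, adjusted p = 0.457). The second Hopx probe gave -0.10 ± 0.21. With slide as a block the changes were -0.28 ± 0.15 for Hopx (limma, adjusted p = 0.327) and -0.20 ± 0.07 for Pdpn (limma, adjusted p = 0.152), neither called. The interval of Pdpn was then -0.34 to -0.05, and the second Hopx probe gave -0.05 ± 0.15. Interaction contrasts, which ask whether tissues differ in their D3 change, called 0% of the 33255 probes for each pair of tissues (limma, 984 at an unadjusted p under 0.05 for lung against liver). The change of Pdpn was 0.34 ± 0.20 higher in lung than in liver and that of Hopx 0.60 ± 0.36 higher (limma, adjusted p = 1 for both), with intervals from -0.06 to 0.73 and from -0.13 to 1.32.

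In forestomach the member with the widest swing was Cav1. Its log2 ratio was 0.53, 0.63, 0.20, 0.76 and 0.97 in the D0 mice and 0.25, -0.63, 0.07, -0.94 and -0.37 in the D1 mice. Every D1 mouse lay below the D0 mean, and mouse 6 alone overlapped with the D0 range. The change at D1 was -0.94 ± 0.27 (SE), with an unadjusted p of 0.00261 and an adjusted p of 0.506 (limma). At D2 the change was -0.43 and at D3 -0.22 ± 0.27, so that the lowest dose had the lowest mean. With slide as a block the D1 change was -0.94 ± 0.24, with an unadjusted p of 0.00136 and an adjusted p of 0.181 (limma). When all 60 arrays were fitted in 1 model, which lends the spread of lung and liver to forestomach, Cav1 was called lower at D1 (limma, adjusted p = 0.00511), as were 0.403% of the 25070 probes. The forestomach sections differed in makeup, and over the 20 arrays the Cy5 signal of Cav1 correlated with the mean signal of 7 smooth muscle genes (r = 0.741) and of 6 fibroblast genes (r = 0.717), a description over arrays that share slides. The squamous (r = 0.646), mesothelial (r = 0.645) and lymphatic endothelial (r = 0.63) lists were not far below, so that no single list stood out. The smooth muscle mean had a median of 14.32 in the D1 sections and 15.44 at D0, with nearly the same ranges, 14.14 to 15.63 and 14.21 to 15.58. The median change at D1 was -1.05 over 7 fat genes, of which 6 were lower, -1.02 over 5 heart muscle genes, -0.29 over the smooth muscle genes and -0.28 over the fibroblast genes (-0.02 over all probes). For 6 mesothelial genes it was -0.40, for 8 caveola partners -0.34 and for 9 squamous genes 0.05. The fat mean correlated less with Cav1 (r = 0.445), and the part of tissue makeup in the Cav1 difference was not tested. Without the 3 D0 arrays the change at D1 was -0.82 (limma, adjusted p = 0.431).

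Hopx varied widely among the forestomach sections, with a log2 Cy5 signal from 11.36 (D1 mouse 9) to 14.90 (D3 mouse 16). Over the 20 arrays it correlated with the mean signal of 9 genes of squamous epithelium, which lines this organ (r = 0.767), and nearly as closely with that of 6 fibroblast genes (r = 0.725) and 6 lymphatic endothelial genes (r = 0.625), as a description. The squamous mean was itself lowest, at 12.25, in D1 mouse 9. At D3 the log2 ratio of Hopx was 0.22 ± 0.32 (SE) above D0 and that of Pdpn 0.17 below (limma, adjusted p = 1 for both). For Pdpn and the squamous genes r was -0.316. Of the 16 wider type 1 genes tested in forestomach at D3, 12 were below and 4 above D0, with a median of -0.32. Over all probes the median was 0.009 and 52.2% were higher. D0 mouse 2, whose array held lung transcripts, is in that D0 group.

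A linear slope over dose was also fitted within each tissue, and calls required an adjusted p of at most 0.05. No member had a called slope, and neither had any probe in lung (0%) or forestomach (0%), while 0.239% of liver probes did. In lung the slope of the log2 ratio of Hopx was 0.0104 ± 0.00679 (SE) per mg/kg-bw/day (limma, adjusted p = 1) and that of Ager 0.00868 ± 0.00909. Without D3 mouse 20 they were 0.00595 and 0.00393, and with slide as a block as well 0.0097 and 0.00941. In liver the slopes ran the other way, -0.0183 ± 0.00833 for Hopx (unadjusted p = 0.0386) and -0.00734 ± 0.00336 for Pdpn (unadjusted p = 0.0391), with an adjusted p of 0.304 for both (limma). Over the 5 slides that lung and forestomach shared, slide took 84.8% of the variance of Ager and 76.6% of that of Hopx over the lung arrays, against 36.5% for Pdpn and 34.2% for Cav1. With slide as a block the standard errors of Ager and Hopx fell and their slopes reached adjusted p-values of 0.277 and 0.135 (limma). The slide block called 21 lung probes at D3 and 95 slopes, or 18 and 226 without D3 mouse 20, no member among them. Each dose kept its own place on the slide, so that dose and place cannot be told apart.

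The slide means of both genes stood in the same order. Over the 5 slides the lung mean of Ager was 5.27, 5.62, 5.71, 6.01 and 6.33, and that of Hopx on the same slides 4.75, 4.95, 5.07, 5.26 and 5.50. Over the 20 lung arrays the log2 ratios of Ager and Hopx correlated at r = 0.971 (Spearman's rho = 0.974, permutation p = 1e-05, the smallest that 100000 permutations can give, 6e-05 after Benjamini-Hochberg adjustment over 6 pairs). Without the 2 arrays farthest from the median of Ager r was 0.968, and with slide means removed it was 0.885. The log2 Cy5 signals of the 2 genes correlated at only 0.283, whereas their Cy3 signals, which measure the reference RNA, correlated at 0.736. What part the reference channel had in the close match of the ratios was not tested.

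**Figure D5:**
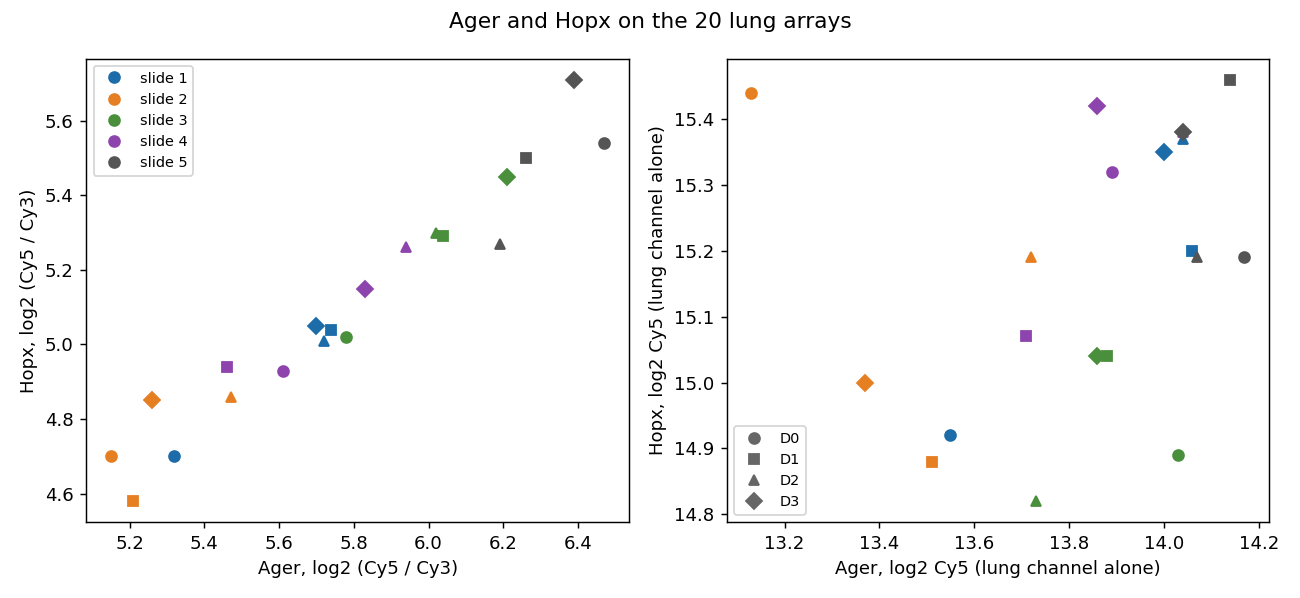
Ager against Hopx on the 20 lung arrays, as log2 ratios at the left and as log2 Cy5 signal at the right, with colour for the slide and shape for the dose group. The ratios fall on a line that runs from slide to slide (r = 0.971), and the Cy5 signals scatter (r = 0.283).

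The other 5 pairs were weaker, and the permutations, which take the 20 arrays as exchangeable, do not allow for arrays that share a slide. Pdpn correlated with Ager at r = 0.532 and with Hopx at r = 0.549 (permutation p adjusted over 6 pairs = 0.0237 for both, Spearman's rho = 0.540 and 0.478, with adjusted p = 0.0464 and 0.0508). Within slides these fell to 0.435 and 0.376. Cav1 correlated with Ager at r = 0.587 (adjusted permutation p = 0.0198; rho = 0.510, adjusted p = 0.0468) and with Hopx at r = 0.507 (0.0264; rho = 0.462, adjusted p = 0.0508), but with slide means removed r was 0.175 and 0.014, so that these relations did not hold within slides. Pdpn and Cav1 gave r = 0.446 (adjusted permutation p = 0.0504; rho = 0.349, adjusted p = 0.132) and 0.227 without the 2 farthest arrays. The 2 Hopx probes followed each other over the lung arrays at r = 0.921 by ratio and 0.264 by Cy5 signal, and the 2 Pdpn probes at 0.488 and 0.616.

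Genes with the most similar pattern were sought among 15496 genes over the 12 group means, as a description over points that share tissues and slides. Nearest to Ager were Cxcl15 (r = 0.9996), Napsa (0.9994) and Fam166c (0.9993), of which Cxcl15, a lung chemokine, and Napsa, a protease that processes surfactant protein B, are known from type 2 and other lung epithelial cells. Nearest to Pdpn were Prmt2, Jdp2 and Cd200 (0.9982 to 0.9989), to Cav1 Lrrk2, Gpc3 and Thbs3 (0.9977 to 0.9987), and to Hopx, less closely, Podn, Pou5f2 and B230219D22Rik (0.9296 to 0.9361). Over the 20 lung arrays, among 14511 genes, those nearest to Ager were Scnn1a, a subunit of the epithelial sodium channel (r = 0.973), Hopx (0.971) and Hhip, a Hedgehog-binding protein (0.970). Those nearest to Hopx were Ager, Sfta2 (0.963) and Robo4, an endothelial guidance receptor (0.959). For Pdpn they were Trabd2b, Timp2 and Abca5 (0.830 to 0.850), and for Cav1 Gm4349, Prxl2c and Vgll3 (0.826 to 0.862). With slide means removed the values for Ager fell to between 0.799 and 0.885.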

How the data were processed

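Tissue RNA (Cy5) and reference RNA (Cy3) were hybridized without dye swaps to 60 Agilent arrays on 8 slides. Median signal intensities, which the authors extracted with Feature Extraction (version 10.7.3.1 in the headers), were used without background subtraction, as in the study. The deposited log2 ratios, which the authors had LOWESS-normalized, correlated with those computed here at 0.992 or more on each array. In R 4.3.3 with limma 3.58.1, 3671 control spots and flagged outliers (0.46% of values) were left out, loess was applied within each array, and spots of a probe were averaged. Cy5 signals were compared after Aquantile scaling. Symbols came from RefSeq accessions for 26413 probes. Testing was limited to probes whose Cy5 signal was well above background on 5 or more of the 20 arrays of a tissue, and was done with lmFit and eBayes, two-sided, with Benjamini-Hochberg adjustment. This moderated test replaced the residual-shuffling Fs test of the study. Calls needed an adjusted p of 0.05 or less and 1.5-fold or more.

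The named genes were all members by their brightest probe, of each list the most changed genes among those called, else the 2 largest and 2 smallest changes, and the 3 genes most like each member. Some genes outside this rule were named beside them, such as Yap1 and Clec1b, which were not called against liver. Members and lists were chosen with earlier results of these data known. With Rtkn2 unmatched, 6 pairs of members were correlated in place of the 10 intended. Mouse numbers denote the same animal in each tissue. Deviations from group means of the same mouse correlated at a median of 0.209 between lung and forestomach, which also shared a slide, 0.0539 between lung and liver and -0.00147 between forestomach and liver. On simulated data the lung D3 test recovered 85% of probes changed by 1 log2 unit and 98% of those changed by 2, and 3.68% of the calls it made among 31022 probes were false. The simulated noise was independent between arrays, with the spread of each probe taken over all tissues and no slide effect. Changes under 1 log2 unit were not simulated, so the recovery of changes as small as those of the members is unknown. Alternatives were another background correction, scanner-processed signals, the deposited ratios, other filters and variance models, slide and mouse as blocks, 1 model for all tissues, each array left out, and, added after seeing the data, the Cy5 signal alone, leaving out 3 arrays at once, and the lung slide block without D3 mouse 20. The number of arrays limits the precision. Intervals are 95% intervals from limma.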

Additional observations from a re-analysis of the deposited data

Results flagged for a closer look

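Among 72 groups of 5 arrays, 4 held an array far from the other 4, and chance alone would mark about 1 group in 20. The log2 ratio of Ager in the forestomach of D0 mouse 2 was 3.26, against -0.53 to -0.15 in the other 4 mice. The second Hopx probe in the liver of D1 mouse 9 was at 5.35, against 4.55 to 4.74, and the first probe was also highest there in its group, at 5.36. The second Pdpn probe in the forestomach of D3 mouse 18 was at -0.25, against -0.95 to -0.83, while the first probe, at -2.26, lay within its group. Cav1 in the liver of D2 mouse 14 was at -1.69, against -2.06 to -1.96, on arrays where it was not well above background.

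The change of Pdpn at D3 was 0.34 log2 units higher in lung than in liver, and it was singled out because every D3 lung lay above the D0 mean and every D3 liver below it. The interaction was tested and not called (limma, adjusted p = 1).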

How the results depend on the processing

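No member changed direction in a called difference between tissues under any setting tried. Differences that were not called did change sign, and some of these were not near 0. In the main fit the D3 change of Ager was -0.58 ± 0.47 (SE) for forestomach minus liver, and Hopx at D0 was 0.42 ± 0.25 for lung minus liver. Without the 3 D0 arrays with markers of another tissue, D3 changes compared between forestomach and liver became 0.06 (Ager) and 0.05 (Cav1), between lung and forestomach -0.04 (Cav1) and -0.35 (Hopx), D1 changes -0.01 (Ager) and -0.07 (Pdpn) in lung and 0.23 (Hopx) in forestomach, and 8 probes were called for forestomach against liver. With scanner-processed signals, lung minus liver was -0.31 for the D3 change of Ager and -0.14 for Hopx at D0, forestomach minus liver 0.35 for the D3 change of Cav1 and -0.17 for Hopx over doses, and Pdpn in liver at D1 0.04. With Cy5 alone, Hopx gave 2.22 for forestomach minus liver at D0, -0.40 in forestomach at D2, -0.29 for the D3 change in lung minus forestomach and -0.02 in lung at D1, and Pdpn -0.01 in lung at D1. Second probes gave 0.07 for Hopx in forestomach minus liver at D0 (normexp 0.09), -0.19 for its D3 change in lung minus forestomach, and 0.06 at D3 and a slope of 0.00524 for Pdpn in forestomach. The cause of these sign changes was not tested.

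Leaving out 1 array at a time gave -0.82 to 0.13 (Ager) and -0.20 to 0.02 (Cav1) for the D3 change in forestomach minus liver, -0.04 to 0.17 for that of Cav1 in lung minus liver and -0.10 to 0.29 for that of Hopx in lung minus forestomach. D1 changes in lung ran from -0.05 to 0.28 (Ager), -0.02 to 0.23 (Hopx) and -0.07 to 0.08 (Pdpn), and in liver from -0.08 to 0.02 (Pdpn). Hopx ran from -0.22 to 0.05 in liver at D2, from -0.36 to 0.05, -0.09 to 0.30 and -0.03 to 0.37 in forestomach at D1, D2 and D3, and from -0.16 to 0.23 in forestomach minus liver at D0. The lung D3 change ran from 0.09 to 0.42 (Ager), 0.15 to 0.41 (Hopx), 0.07 to 0.23 (Pdpn) and -0.14 to 0.00 (Cav1), and the lung slope from 0.00393 to 0.0151 (Ager) and 0.00595 to 0.0144 (Hopx), with the lowest slopes without D3 mouse 20. The forestomach slope of Cav1 ran from -0.00444 to 0.00757. Counts of called probes ran from 0 to 239 for liver slopes, 0 to 29 for liver at D3, and 0 to 1, 0 to 2 and 0 to 1 for the D3 change in forestomach minus liver, lung minus forestomach and lung minus liver.

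Liver slopes (62 called) numbered 117 with processed signals, 171 with the filter on all 20 arrays, 141 with a variance trend and 677 with the slide block. At D3 liver had 5 calls with processed signals, 24 with the slide block and 5 in 1 model of 60 arrays, and lung 1 with processed signals and 21 with the slide block, which also called 95 lung slopes, or 18 and 226 without D3 mouse 20. The model of 60 arrays called 827 probes in forestomach and 1 in liver at D1. Processed signals called 20593 probes between forestomach and liver (12974 without) and 17813 between lung and forestomach (11497 without).

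With the mouse as a replicate block the lung minus liver difference was 6.14 ± 0.16 for Ager and 0.58 ± 0.13 for Hopx, and no call of a member changed. The 1.49-fold of Hopx passed the fold for a call with normexp (0.65), the second probe (0.84), Cy5 alone (3.30) and without the 3 D0 arrays (0.59), and 13 of 40 arrays, 6 of lung and 7 of liver, each did so when left out alone (range over all 40, 0.54 to 0.61), among them lung D1 mouse 8 and liver D1 mouse 9 (0.61 each). The D0 difference of Ager between forestomach and liver was 0.60 with Cy5 alone (limma, adjusted p = 0.0972), and its adjusted p without a filter was 0.0754. Aquantile scaling leaves a log ratio as it is and gave no further values. Ager in liver and forestomach and Cav1 in liver lay near background, which limits any statement on dose there.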
